A study of Mus musculus with 15 samples.

Results

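STAT transcription factors and Janus kinases (JAKs) were followed in B cells from AM-14 mice through 9 genes, Stat2, Stat3, Stat5a, Stat5b, Stat6, Jak1, Jak2, Jak3 and Tyk2. The genes were taken by name, with earlier results of these data known, and every probe set annotated to 1 of them alone was used. This gave 20 probe sets among 45037 on the array, and 9 of the 18193 genes with a probe set of their own. Another 2 probe sets list Jak3 together with Insl3 and were not assigned to either gene. A probe set is a group of short oligonucleotides that together report on a transcript. All 20 probe sets passed the filter on low signals, so no member was lost to it.

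RNA from AM-14 B cells was hybridised to 15 Affymetrix mouse arrays, 3 for each of 5 groups, to compare stimulation through the B cell receptor with stimulation through Toll-like receptors. AM-14 B cells carry a transgenic receptor that binds IgG2a, a rheumatoid factor specificity, and every group, the control included, shares it. The control cells were kept in media alone. The other groups received a goat F(ab)2 antibody to mouse IgM, which crosslinks the B cell receptor, CpG oligodeoxynucleotide 1826, which engages Toll-like receptor 9, PL2-3, which the labels describe as a chromatin immune complex, or anti-IgM and CpG together. For the last group the titles name both agents while the treatment field names none. Doses, times, the age of the mice and the origin of the replicates are not given in the sources used here, so each p-value speaks only to the variation among these arrays, and that may be technical.

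Cytokine receptors have no kinase of their own. Their chains carry Janus kinases, which are activated when a cytokine draws the chains together and which then phosphorylate STAT proteins. Phosphorylated STAT proteins pair, enter the nucleus and switch on genes, among them genes of inhibitors that end the signal. In B cells this route carries the signals of interferons and of the interleukins that steer survival, proliferation and class switching. The arrays measured RNA and not phosphorylation.

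Arrays of the anti-IgM+CpG group stood apart from the other 12 in the signal of Xist, which is not a STAT or JAK gene. Their signal for Xist was 321 to 589, against 4252 to 15543 on the other arrays. The beta-actin control, read at its 5′ end relative to its 3′ end, differed between the labelling kits in the other groups. Whether RNA quality also moved it was not tested. Its ratio was 0.105 to 0.193 on these 3 arrays. In the other groups it was 0.335 to 0.747 on the 8 arrays labelled with the Enzo kit and 0.108 to 0.201 on the 4 labelled with the Ambion kit. The labels assign Enzo to replicates 1 and 2 and Ambion to replicate 3 of every group, so 2 arrays of the anti-IgM+CpG group went against their labels. Members' results that rest on this group are therefore mostly given with the kit as labelled and again as read from the beta-actin ratio. For some probe sets only the first is given. Under the second reading all 3 arrays count as Ambion, so the kit term comes from the other groups alone. Neither reading accounts for the difference in Xist, whose cause was not tested. In every comparison that uses this group, what set it apart cannot be told apart from the treatment. Median signals ranged from 263 to 514 over the 15 arrays.

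Signals below are the deposited linear values of a gene's probe set with the highest mean signal, unless another probe set is named. Changes are differences of log2(signal + 75.2) between group means, adjusted for the labelling kit, and they understate the change of dim genes. They were tested with limma over 13160 genes with Benjamini-Hochberg adjustment, and a gene was called, and said to rise or fall, at an adjusted p under 0.05. The cells were measured in bulk, so fewer cells of a type and less RNA per cell cannot be told apart.

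Each stimulus left most of the 9 genes uncalled. With anti-IgM 1 gene rose, 1 fell and 7 were not called, where 19.5% of all genes were called, 10.1% higher and 9.32% lower. With CpG 1 rose, 2 fell and 6 were not called, against a background of 30.1%, with 13.1% higher and 16.9% lower. With PL2-3 1 rose, 1 fell and 7 were not called, against 25.9% (12.4% higher and 13.5% lower). With anti-IgM and CpG together 1 rose, 2 fell and 6 were not called, against 41.9% (17.2% higher and 24.8% lower). The members' share of calls thus lay near that of all genes. Their median change was -0.23 with anti-IgM, -0.23 with CpG, -0.24 with PL2-3 and -0.32 with both, beside -0.13, -0.21, -0.10 and -0.29 over all genes. The gene that rose was Stat5a in each case, and the genes that fell were Jak2, Tyk2, Stat2 or Jak1, depending on the stimulus. The 4 comparisons share the media arrays. Over the 20 probe sets, 2 rose and 2 fell with anti-IgM where 14.8% of all probe sets were called, and 2 rose and 2 fell with CpG (24.5%). With PL2-3 2 rose and 1 fell (20.9%), and with both agents 2 rose and 3 fell (39.3%).

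**Figure D1:**
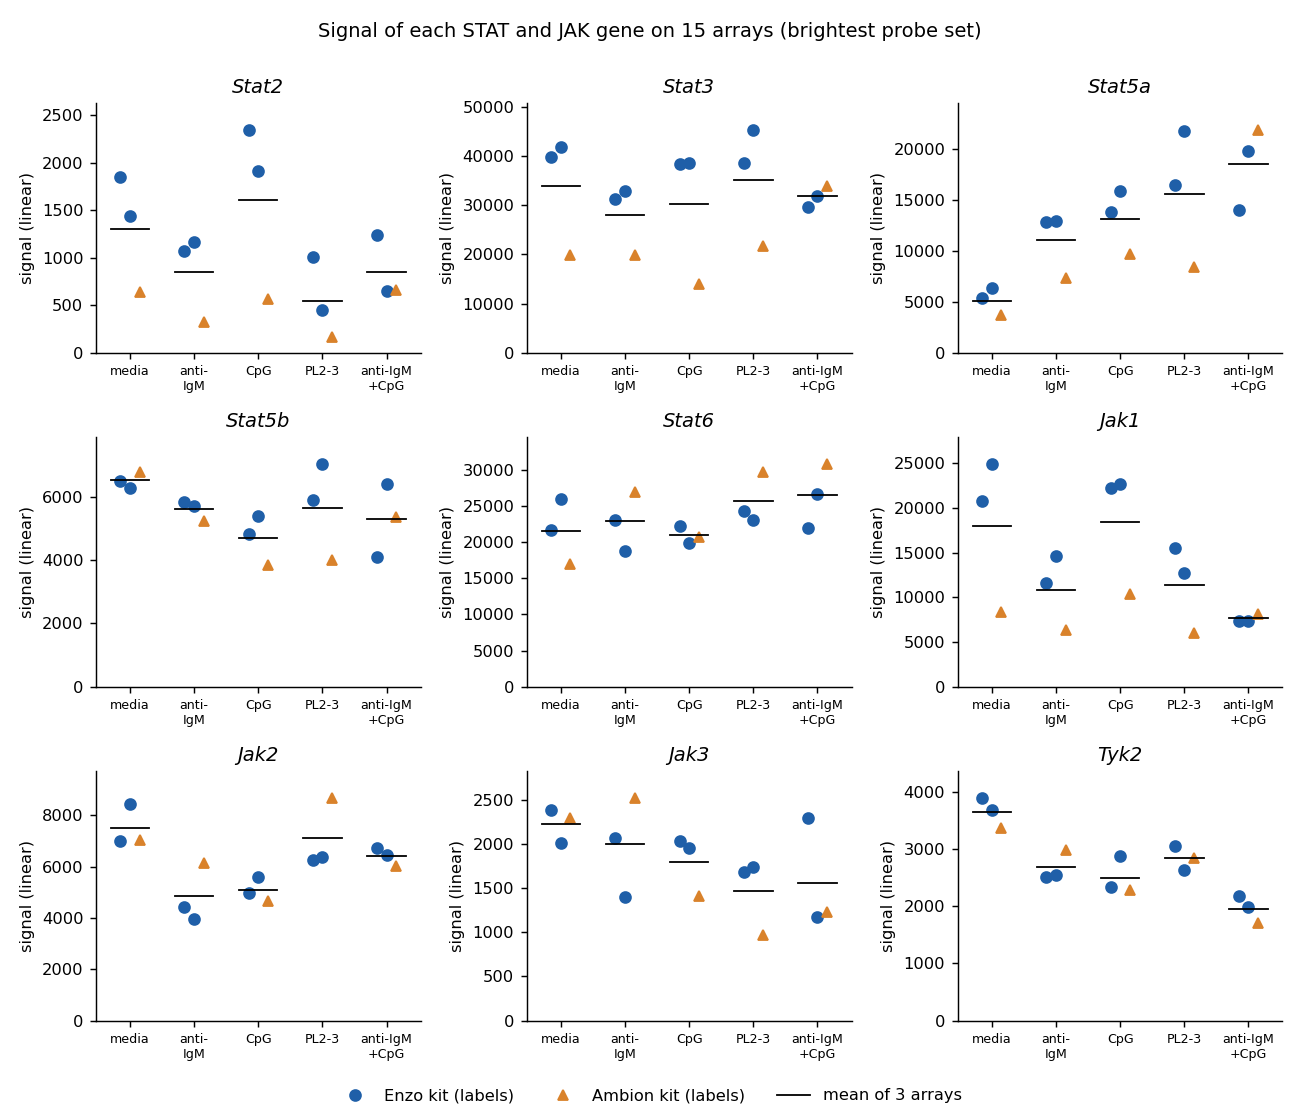
Linear signal of each gene's brightest probe set (vertical axis, starting at 0, a separate scale for each gene) on the 15 arrays, by group, with blue circles for arrays labelled with the Enzo kit and orange triangles for the Ambion kit according to the labels, and a line at the mean of 3 arrays. All 12 stimulated arrays lie above the 3 media arrays for Stat5a and below them for Tyk2, while the Ambion arrays of Stat2, Stat3 and Jak1 lie below the Enzo arrays in every group except anti-IgM+CpG.

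Stat5a, a factor activated by the interleukin 2 family of cytokines, rose with every stimulus. Its signal was 5313, 6297 and 3729 on the media arrays. It was 12853, 12890 and 7360 with anti-IgM. It was 13775, 15880 and 9713 with CpG. Every stimulated array lay above the highest media array, although the third replicate of the media, anti-IgM, CpG and PL2-3 groups was the lowest of its group. The signal was 16422, 21711 and 8446 with PL2-3. It was 13996, 19745 and 21818 with anti-IgM and CpG together. The groups did not overlap with media in any of the 4 comparisons, which held for 30.8%, 40.6%, 33.9% and 50.3% of all genes with anti-IgM, CpG, PL2-3 and both agents. The rise was 1.08 ± 0.25 (SE) on the log2 scale with anti-IgM, a 2.12-fold change with a limma adjusted p of 0.00536. It was 1.35 ± 0.25 with CpG (2.55-fold, limma adjusted p = 0.000635) and 1.52 ± 0.25 with PL2-3 (2.86-fold, limma adjusted p = 0.000306). With both agents it was 1.85 ± 0.25, or 3.60-fold, with a limma adjusted p of 2.5e-05, and with the kit read from beta-actin it was 2.38 (5.05e-07). Stat5a was called in all 4 comparisons under every alternative run, with changes from 1.03 to 2.44.

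The dimmer Stat5a probe set, 1450259_a_at, changed the same way. In a separate fit over 23059 probe sets it rose by 1.74 ± 0.54 with anti-IgM (limma adjusted p = 0.0398), 2.02 ± 0.54 with CpG (0.0121) and 2.00 ± 0.54 with PL2-3 (0.0148). Its signal was 605, 717 and 155 in media and 714, 1639 and 1445 with both agents, groups that overlapped. That difference of 1.35 ± 0.54 was not called (limma adjusted p = 0.0584), and it was 2.74 (0.000172) with the kit read from beta-actin. With the replicate number as a block its adjusted p was 0.0431.

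The order of the Stat5a group means was media, anti-IgM, CpG, PL2-3 and then both agents. None of the neighbours above media was called different. CpG and anti-IgM differed by 0.27 (95% interval -0.26 to 0.79), PL2-3 and CpG by 0.17 (-0.35 to 0.69). PL2-3 against both agents was -0.33 (-0.85 to 0.19), and -0.86 ± 0.20 (limma adjusted p = 0.0628) with the kit read from beta-actin. The difference between both agents and anti-IgM alone, 0.76 ± 0.25, missed the threshold (limma adjusted p = 0.064), while their arrays did not overlap, as in 23.3% of all genes. It was called with the kit read from beta-actin (1.29, limma adjusted p = 0.00136), without the first anti-IgM+CpG replicate (0.00904) and after a shift of all arrays to 1 median (1.11, 0.0076). Stat5a with both agents against CpG alone was 0.50 ± 0.25 (limma adjusted p = 0.286), and 1.03 (0.0066) with the kit read from beta-actin.

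Stat5b, the close paralog of Stat5a encoded next to it, did not rise with it. Its mean signal was 6526 ± 255 in media, 5604 ± 319 with anti-IgM, 4689 ± 791 with CpG, 5655 ± 1531 with PL2-3 and 5305 ± 1156 with both agents (SD, n = 3). The change nearest the threshold was with CpG, -0.48 ± 0.19, where the 3 arrays lay below all 3 media arrays and the limma adjusted p was 0.0694. CpG and media arrays did not overlap in 40.6% of all genes. Without the anti-IgM+CpG arrays in the fit the change of Stat5b with CpG had a limma adjusted p of 0.0291. The 95% interval of the change was -0.63 to 0.19 with anti-IgM, -0.65 to 0.17 with PL2-3 and -0.73 to 0.09 with both, where the change was -0.32, or -0.13 with the kit read from beta-actin. The other Stat5b probe set, 1422102_a_at, was not called with any stimulus, at 0.20 with both agents, and reached 0.91 (limma adjusted p = 0.0491) with the kit read from beta-actin. Whether Stat5a and Stat5b probe sets share oligonucleotides was not examined here.

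Stat3, which carries signals of interleukin 6 and interleukin 10, gave different answers through different probe sets. Its brightest probe set, 1426587_a_at, read 39921, 41927 and 19869 in media and 29704, 31876 and 34048 with both agents. None of the 4 changes was called, the smallest limma adjusted p being 0.494. Probe set 1460700_at read 13778, 13771 and 13575 in media. It read 23916, 25272 and 26244 with anti-IgM and CpG together. These 3 arrays lay above the other 12, whose highest value was 19810. Against media alone the groups did not overlap in 50.3% of all genes, and the share against all 12 was not counted. The change was 0.87 ± 0.15 (limma adjusted p = 0.000261), and 1.05 (4.95e-05) with the kit read from beta-actin. It also exceeded anti-IgM alone by 0.86 ± 0.15 (limma adjusted p = 0.0031) and CpG alone by 0.62 ± 0.15 (0.0248), and it was not called with anti-IgM, CpG or PL2-3 against media. With the kit read from beta-actin, 1426587_a_at rose too, by 0.68 (limma adjusted p = 0.00404) in place of -0.02. The other Stat3 probe sets, 1459961_a_at and 1424272_at, were not called in any comparison with media.

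Stat6, the factor of interleukin 4 and interleukin 13, was not called with any stimulus. Its signal ran from 17035 to 25983 in media and from 22037 to 30825 with both agents, and the groups overlapped. The intervals of its change were -0.29 to 0.48 with anti-IgM, -0.40 to 0.36 with CpG, -0.12 to 0.65 with PL2-3 and -0.08 to 0.69 with both, around changes of 0.09, -0.02, 0.26 and 0.30. The last was 0.27 with the kit read from beta-actin. After a shift of all arrays to 1 median it rose with both agents, by 0.90 (limma adjusted p = 0.00612), a scaling that moves the median of all genes from -0.29 to 0.30 in this comparison.

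Stat2 joins with Irf9 in the complex that type I interferon sends to the promoters of interferon-response genes. Many such promoters carry a repeat of GAAA, searched here on both strands as 2 copies of GAAA with 2 bases between them, in the 250 bases before each start in a RefSeq table of the GRCm38.p6 build. The repeat was in 2.98% of 32851 promoters, in 1 of the 9 STAT and JAK genes and in 5 of the 14 measured interferon-response genes with a promoter in the table. Here and below, shares of all promoters count promoters, while a gene counted if any of its promoters matched. Stat5a and Stat5b have 2 promoters each. The single member with the repeat was Stat2. Its 250 bases, at chr10:128270248-128270497 on the plus strand, are shown because they hold this repeat and a palindrome of the STAT type, with the letters of both in capitals. The first run of capitals is the GAAA repeat as read on the other strand, at positions -222 to -213 from the start. The next, at -210 to -201, is TTC and GAA with 4 bases between them, the spacing that Stat6 prefers, which was found in 5.85% of all promoters and in no other member.
Stat2: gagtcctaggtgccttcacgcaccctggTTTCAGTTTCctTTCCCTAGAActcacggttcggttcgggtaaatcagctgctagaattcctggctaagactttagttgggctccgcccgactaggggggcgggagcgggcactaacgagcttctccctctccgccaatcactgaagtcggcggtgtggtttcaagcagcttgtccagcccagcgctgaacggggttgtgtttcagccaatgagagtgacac

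The palindrome TTCNNNGAA, bound by most STAT pairs, was in 7.02% of all promoters and in 0 of the 9 members. GGG and CC with 5 bases between them, a loose form of the NF-kappa-B site, was in 45.8% of all promoters and in 6 of the 9, Stat2 among them, where its overlapping matches at -144 to -135 and -143 to -134 are left in lower case. A match is a run of letters and not a measured binding site. Below, 30-base stretches around the GAAA repeat in Stat2 and in 3 interferon-response genes measured on the same arrays are set side by side, with the repeat in capitals and each read on the strand of its gene. They lie at chr10:128270266-128270295 for Stat2, chr19:34583363-34583392 for Ifit3, chr12:26456553-26456582 for Rsad2 and chr8:71537583-71537612 for Bst2. In Bst2 a second match, at -124 to -115, overlaps the one in capitals, and its remaining bases are left in lower case.
Stat2: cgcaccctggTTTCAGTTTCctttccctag
Ifit3: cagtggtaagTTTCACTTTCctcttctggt
Rsad2: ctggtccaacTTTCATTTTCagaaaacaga
Bst2: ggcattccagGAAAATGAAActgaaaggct

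Stat2 fell with PL2-3 and was not called with the other stimuli. Its signal was 1847, 1437 and 639 in media and 1008, 447 and 167 with PL2-3. The groups overlapped, because the third array of media, labelled with the Ambion kit, was below the first of PL2-3, labelled with the Enzo kit. Within each replicate number the PL2-3 array was the lower. The change was -1.31 ± 0.34, a 2.47-fold fall with a limma adjusted p of 0.00909. With CpG the signal was 2346, 1915 and 567, a change from media of 0.19 ± 0.34 that was not called, and Stat2 was lower with PL2-3 than with CpG by 1.50 ± 0.34 on the log2 scale (limma adjusted p = 0.0212). With anti-IgM the signal was 1071, 1163 and 323 and the change -0.63 ± 0.34 (limma adjusted p = 0.225).

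The dimmer Stat2 probe set 1450403_at did not show the fall. It read 955, 1109 and 577 in media and 888, 1193 and 379 with PL2-3, a change of -0.17 ± 0.28 (limma adjusted p = 0.727). The PL2-3 calls of Stat2 ended without a term for the kit (limma adjusted p = 0.153 against media, 0.353 against CpG), with Enzo arrays alone (0.0507 and 0.0651) and with the mean of the probe sets (0.0599 and 0.0572). The difference from CpG also lost its call without CpG replicate 1 or 2 or PL2-3 replicate 2 or 3, with adjusted p from 0.0648 to 0.117. With both agents the change of Stat2 was -0.53 ± 0.34 with the kit as labelled and 0.51 with the kit read from beta-actin, neither of them called. Without the third anti-IgM+CpG array it was -0.91 and was called (limma adjusted p = 0.0427).

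Irf9, the DNA-binding partner of Stat2, had the highest correlation with Stat2 over the 15 arrays of all 13160 genes (Pearson r = 0.875). Its mean signal was 5698 ± 1264 in media, 8268 ± 1533 with CpG and 3747 ± 1248 with PL2-3 (SD, n = 3). Irf9 rose with CpG by 0.54 ± 0.17 (limma adjusted p = 0.0225). It fell with PL2-3, by -0.63 ± 0.17 (0.0105), although its arrays overlapped with media, and its changes with anti-IgM and with both agents were -0.13 and -0.03. The PL2-3 call ended after a shift of all arrays to 1 median (limma adjusted p = 0.112), without a term for the kit (0.0986) and without PL2-3 replicate 3 (0.0834). The CpG call ended without that term (0.145), after quantile normalization (0.0617), with Enzo arrays alone (0.0559) and without media or CpG replicate 1 or 3 (0.0546 to 0.0808). Of the 7 partner and other STAT genes tested, 2 fell with PL2-3, Irf9 and Ep300, a coactivator that STAT proteins recruit. Ep300 fell by -1.15 ± 0.22 (limma adjusted p = 0.00115), and also fell with anti-IgM (-0.69) and with both agents (-1.02), calls that ended after a shift of all arrays to 1 median. The anti-IgM call also ended without a term for the kit (limma adjusted p = 0.0857), with Enzo arrays alone (0.143), with eBayes without a trend (0.074) and on leaving out any 1 media or anti-IgM array. The list counted 1 fall with anti-IgM, 1 rise with CpG and 1 fall with both. Of all genes 13.5% fell with PL2-3, 9.32% fell with anti-IgM, 13.1% rose with CpG and 24.8% fell with both.

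Interferon-response genes were counted in the same comparisons. Of 19 tested, 7 rose with anti-IgM, 12 rose with CpG and 11 rose with both agents, and 0 fell with any of these. With PL2-3 1 rose and 9 fell. Over all genes 10.1%, 13.1%, 12.4% and 17.2% rose with anti-IgM, CpG, PL2-3 and both, and 9.32%, 16.9%, 13.5% and 24.8% fell. The median change of the 19 was 0.81 with anti-IgM, 1.18 with CpG, -0.91 with PL2-3 and 0.93 with both, beside -0.13, -0.21, -0.10 and -0.29 over all genes. Between PL2-3 and CpG 14 of the 19 were lower with PL2-3 and 0 higher, with a median of -1.82 beside 0.06 over all genes. Of all genes 1.6% were lower there. After a shift of all arrays to 1 median, 4 of the 19 fell with PL2-3. In that setting 20.7% of all genes were called in either direction, and 64.7% of those calls were higher.

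Ifit3, which binds foreign RNA together with its relatives, carried the largest fall. Its signal averaged 1348 ± 390 in media, 3068 ± 1197 with CpG and 232 ± 201 with PL2-3 (SD, n = 3). The change with PL2-3 was -2.43 ± 0.51 (limma adjusted p = 0.00217), and it was called under every alternative run. Rsad2, an antiviral enzyme, fell by -1.84 ± 0.53 with PL2-3 (0.0178), with a value of -0.01 with CpG. That call ended with Enzo arrays alone (-1.32, 0.157), without media replicate 3 (-1.16, 0.14) and without PL2-3 replicate 2 or 3. Mx2, an antiviral GTPase, rose by 3.64 ± 0.37 with CpG (4.47e-06) and by 1.96 ± 0.37 with anti-IgM (0.00146). It was not called with PL2-3, where it lay below the pseudocount at 60.1 ± 11 (SD, n = 3). Bst2, which tethers budding virus, rose by 2.41 ± 0.33 with CpG (6.06e-05) and by 2.70 ± 0.33 with both agents (1.25e-05). Bst2 and Mx2 were called under every alternative run in the comparisons in which they rose. Ifih1, a sensor of viral RNA, was the single interferon-response gene that rose with PL2-3, by 1.01 (limma adjusted p = 0.0307), and is named here after its value was seen.

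**Figure D2:**
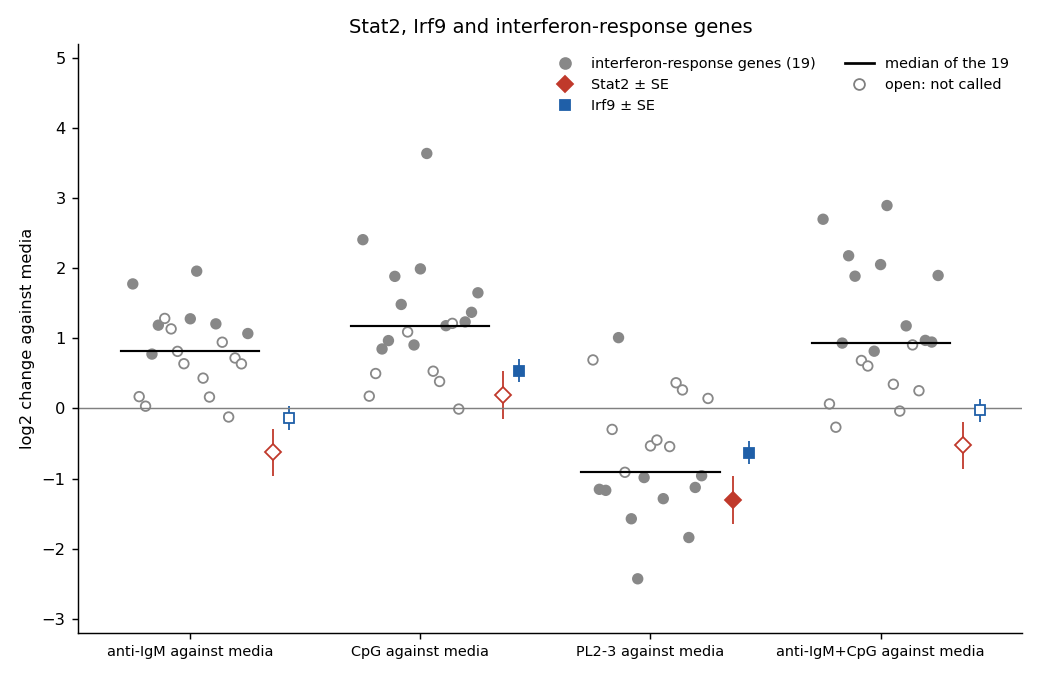
Log2 change against media (vertical axis) of 19 interferon-response genes (grey circles, spread sideways for visibility, with a line at their median), of Stat2 (red diamonds ± SE) and of Irf9 (blue squares ± SE), for the 4 stimuli on the horizontal axis. Filled symbols were called by limma at an adjusted p under 0.05 and open symbols were not. The median lies at 0.81 with anti-IgM, 1.18 with CpG, -0.91 with PL2-3 and 0.93 with both agents.

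Jak1 is the kinase of most type I and type II cytokine receptors, including both interferon receptors. Its signal was 20784, 24927 and 8353 in media and 7389, 7399 and 8111 with anti-IgM and CpG together. The highest of the latter lay just below the lowest of media, groups that did not overlap in 50.3% of all genes. With the kits as labelled Jak1 fell by -1.09 ± 0.25 (2.13-fold, limma adjusted p = 0.00223), and it was lower than with CpG alone by 1.18 ± 0.25 on the log2 scale (0.0111). Both calls ended with the kit read from beta-actin, at -0.29 (limma adjusted p = 0.171) and -0.38 (0.308), and without a term for the kit. The first also ended after a shift of all arrays to 1 median (-0.49, limma adjusted p = 0.114), and the second without CpG replicate 1 or 2 or anti-IgM+CpG replicate 2. In the other 4 groups the third replicate, labelled with the Ambion kit, lay below the mean of the others by 1.04 to 1.44 on the log2 scale for this probe set, and in the anti-IgM+CpG group it lay 0.13 above.

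Jak1 with anti-IgM read 11556, 14672 and 6301, and with PL2-3 15482, 12712 and 6038. The changes of -0.67 ± 0.25 and -0.62 ± 0.25 were not called (limma adjusted p = 0.0697 and 0.0771). Without the anti-IgM+CpG arrays in the fit both were called, at the same size (0.00313 and 0.00386), as they were without the third array of that group alone (0.00343 and 0.00419). With CpG Jak1 read 22253, 22664 and 10420 and its change was 0.09 ± 0.25. The CpG group exceeded the anti-IgM group by 0.76 ± 0.25, which was not called over all arrays (0.0844) and was called without the anti-IgM+CpG arrays (0.00261).

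Further Jak1 probe sets differed with both agents. Probe set 1433803_at, which differed little between the kits, read 7339, 10059 and 7442 in media and 8954, 8805 and 8930 with both agents, a change of 0.12 ± 0.18 (limma adjusted p = 0.628). Probe set 1433804_at read 1651, 1282 and 559 in media and 26.7, 446 and 255 with both agents, a change of -2.13 ± 0.50 (0.00352) that was called with either reading of the kit. The reading of 26.7 lay below the pseudocount of 75.2, and that of 255 below its array's median of 277. Leaving out single arrays was not run for this probe set. With anti-IgM alone, 1433803_at fell by -0.57 ± 0.18 (limma adjusted p = 0.0446, and 0.0501 with the replicate number as a block). With CpG it was higher than with anti-IgM by 0.70 ± 0.18 (0.0356).

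**Figure D3:**
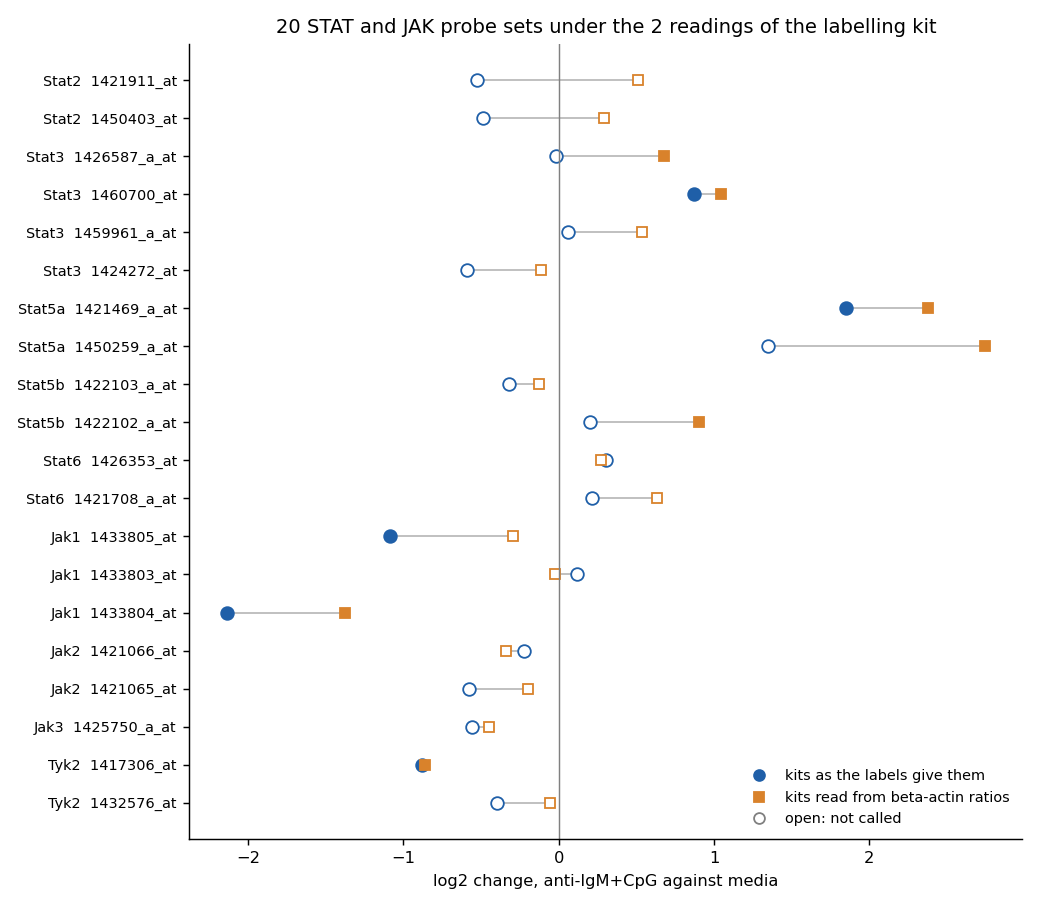
Log2 change of the 20 probe sets of the STAT and JAK genes with anti-IgM and CpG together against media (horizontal axis), with the labelling kit as the labels give it (blue circles) and as read from the beta-actin ratio (orange squares). Filled symbols were called by limma at an adjusted p under 0.05. Stat5a 1421469_a_at, Stat3 1460700_at, Jak1 1433804_at and Tyk2 1417306_at were called under both readings, while Jak1 1433805_at was called only with the kit as labelled.

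Jak2, the kinase of the interferon gamma receptor and of interleukin 12 and growth factor receptors, fell with anti-IgM and with CpG when given alone. Its signal was 6992, 8461 and 7040 in media, 4425, 3951 and 6147 with anti-IgM, and 4989, 5594 and 4650 with CpG. Neither group overlapped with media, which held for 30.8% of all genes with anti-IgM and 40.6% with CpG. The changes were -0.64 ± 0.18 (limma adjusted p = 0.0175) and -0.55 ± 0.18 (0.0267). With PL2-3 Jak2 read 6262, 6363 and 8674 and changed by -0.09 ± 0.18, and with both agents it read 6743, 6436 and 6025 and changed by -0.22 ± 0.18, or -0.34 with the kit read from beta-actin. Neither was called.

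The fall of Jak2 was not called after a shift of all arrays to 1 median (-0.40, limma adjusted p = 0.319 with anti-IgM, and -0.19, 0.632 with CpG), and leaving out media replicate 2, anti-IgM replicates 1 or 2 or CpG replicates 1 or 3 ended a call. The CpG call also ended with eBayes without a trend (limma adjusted p = 0.0505) and with the mean of the probe sets (0.0772). Jak2 with both agents lay above the sum of the separate changes by 0.98 ± 0.25, which missed the threshold (limma adjusted p = 0.0513) and passed it at 0.0215 after quantile normalization and at 0.0178 without the third anti-IgM+CpG array. This departure was called in 5 of 28 alternatives, and not with the kit read from beta-actin. The dimmer Jak2 probe set 1421065_at changed by -0.91 ± 0.34 with anti-IgM (limma adjusted p = 0.0883), by -0.58 ± 0.34 with CpG and by -0.58 ± 0.34 with both.

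Tyk2, the kinase paired with Ifnar1 in the type I interferon receptor, was lower than in media on all 12 stimulated arrays. Groups did not overlap with media in 30.8%, 40.6%, 33.9% and 50.3% of all genes with anti-IgM, CpG, PL2-3 and both. Tyk2 read 3895, 3685 and 3374 in media and 2341, 2881 and 2282 with CpG. It read 2179, 1988 and 1702 with both agents. The fall was -0.54 ± 0.16 with CpG (limma adjusted p = 0.0205) and -0.88 ± 0.16 with both (0.000485). With anti-IgM it read 2518, 2543 and 2993, and with PL2-3 3049, 2639 and 2851, changes of -0.44 ± 0.16 (0.0754) and -0.35 ± 0.16 (0.132) that were not called. With the kit read from beta-actin the value with both agents was -0.86 (limma adjusted p = 0.00125). After a shift of all arrays to 1 median the changes were -0.18 (limma adjusted p = 0.641) and -0.29 (0.366), and the CpG call also ended with Enzo arrays alone (0.0817) and without media replicate 1, CpG replicate 1 or CpG replicate 3. The other Tyk2 probe set, 1432576_at, averaged 703 ± 85.4 in media and 400 ± 168 with CpG (SD, n = 3), a change of -0.78 ± 0.28 (limma adjusted p = 0.0502).

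Jak3, the kinase of the common gamma chain shared by the interleukin 2 family, was not called with any stimulus. Its mean signal was 2230 ± 191 in media, 1999 ± 562 with anti-IgM, 1800 ± 341 with CpG, 1465 ± 427 with PL2-3 and 1562 ± 632 with both agents (SD, n = 3). The 3 PL2-3 arrays lay below the 3 media arrays, groups that did not overlap in 33.9% of all genes. The change was -0.62 ± 0.28 (95% interval -1.22 to -0.03, limma adjusted p = 0.119). With both agents it was -0.56 ± 0.28, or -0.45 with the kit read from beta-actin, and without the first anti-IgM+CpG array it was called (limma adjusted p = 0.0259). The probe set 1423021_s_at, which lists Jak3 and Insl3, averaged 4584 ± 742 in media and 2150 ± 446, 1940 ± 340, 2492 ± 270 and 1801 ± 354 with anti-IgM, CpG, PL2-3 and both. It was not tested because it names 2 genes, and its share from each is unknown.

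**Figure D4:**
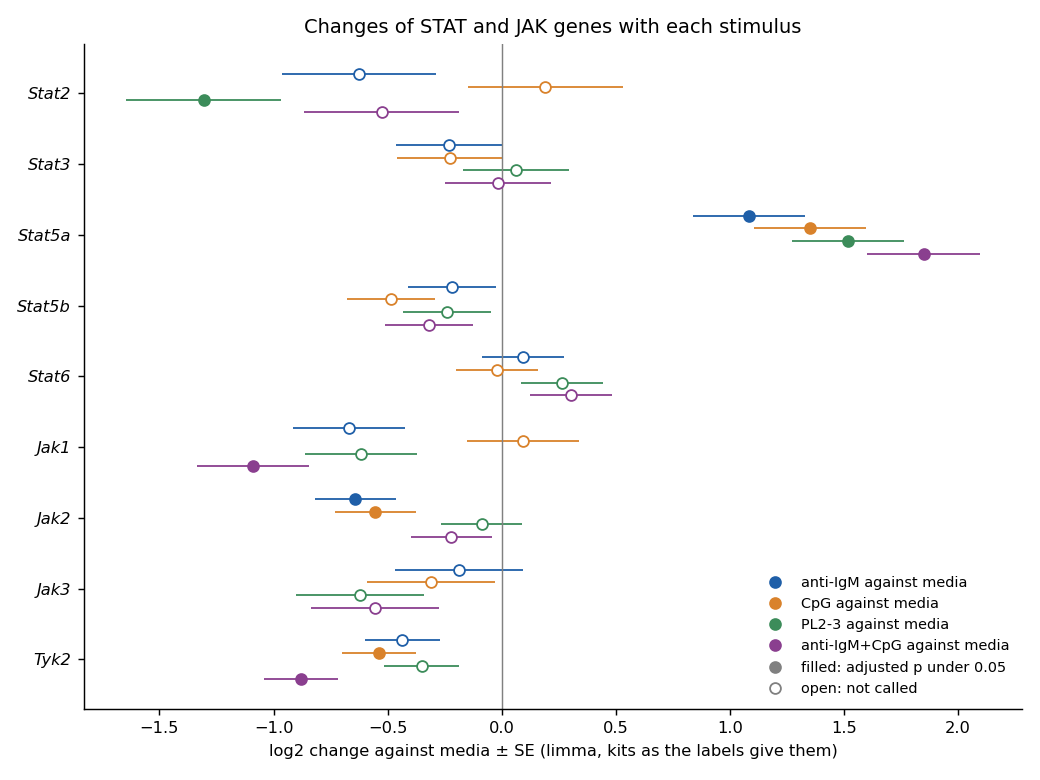
Log2 change ± SE against media (horizontal axis) of the 9 STAT and JAK genes with anti-IgM (blue), CpG (orange), PL2-3 (green) and both agents (purple), with the labelling kits as the labels give them. Filled circles were called by limma at an adjusted p under 0.05. The 4 Stat5a values lie between 1.08 and 1.85, and the filled values below 0 belong to Stat2, Jak1, Jak2 and Tyk2.

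Between stimuli few members differed. With limma 0 of 9 were called between CpG and anti-IgM (2 at an unadjusted p under 0.05), where 6.41% of all genes were called. Between PL2-3 and anti-IgM it was also 0 (1 unadjusted), against a background of 0.691%. Between PL2-3 and CpG the single call was Stat2, which was lower (background 3.2%, of which 1.6% lower). PL2-3 and the 2 agents together gave 0 calls (2 unadjusted, background 1.84%), with Stat2 at -0.78 ± 0.34 and at -1.82 (limma adjusted p = 0.0198) with the kit read from beta-actin. Both agents against anti-IgM gave 0 calls (3 unadjusted, background 9.07%), and against CpG the call of Jak1, which was lower (background 4.53%, of which 2.61% lower). Departure from additivity was called for 0 members (1 unadjusted, background 2.5%). Stat3 was called there through 1426587_a_at only with the kit read from beta-actin (1.13, limma adjusted p = 0.0183). Of the 20 probe sets, 1 rose with CpG against anti-IgM (background 4.54%), 2 rose with both agents against anti-IgM (8.5%), and 1 rose and 1 fell with both agents against CpG (4.83%). The 2 probe sets that rose against anti-IgM were Stat3 1460700_at and Jak1 1433803_at. Between PL2-3 and CpG 1 fell (2.22%), and with limma 0 were called between PL2-3 and anti-IgM (0.386%), between PL2-3 and both agents (1.67%) and for departure from additivity (1.53%).

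Genes that work with the STAT and JAK proteins were grouped by role. Of 23 receptor chains tested, 2 rose and 6 fell with anti-IgM, 3 rose and 11 fell with CpG, 3 rose and 7 fell with PL2-3, and 3 rose and 10 fell with both agents. The falls were called for 2, 2, 3 and 4 chains after a shift of all arrays to 1 median, in the same order. With that shift 16.1%, 25.7%, 20.7% and 38.5% of all genes were called in either direction. Of those calls 77.1%, 74.6%, 64.7% and 79.2% were higher. Before that shift 10.1%, 13.1%, 12.4% and 17.2% of all genes rose, and 9.32%, 16.9%, 13.5% and 24.8% fell. Il15ra, which presents interleukin 15, averaged 235 ± 264 in media and 2196 ± 455 with anti-IgM (SD, n = 3). It rose by 3.18, 2.44, 2.94 and 4.05 with anti-IgM, CpG, PL2-3 and both, while its other probe set changed by 0.33, 0.38, 0.71 and 0.79. Il2ra, the chain that gives the interleukin 2 receptor its high affinity, rose by 1.48, 2.52, 2.09 and 2.74 in the same order, with its other probe set at 1.24, 2.14, 1.58 and 2.47. Both chains feed Jak1, Jak3 and the Stat5 proteins through shared receptor partners, and both were called in all 4 comparisons under every alternative run. Other chains fell. Il9r changed by -1.67, -1.85 and -2.15 with anti-IgM, CpG and both, called in 17 of 28, 24 of 28 and 27 of 27 alternatives. Il10ra changed by -2.07 with anti-IgM and -1.49 with PL2-3, called in 26 and 12 of 28 alternatives. Ifngr1, the ligand-binding chain of the interferon gamma receptor, averaged 7830 ± 1113 in media and 2954 ± 915 with both agents, a fall of -1.42 ± 0.20 (limma adjusted p = 5.34e-05).

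Among 12 ligands tested, 0 rose and 1 fell with anti-IgM, 5 rose and 0 fell with CpG, 4 rose and 1 fell with PL2-3, and 5 rose and 1 fell with both. Beside these stand 10.1%, 13.1%, 12.4% and 17.2% of all genes up, and 9.32%, 16.9%, 13.5% and 24.8% down. Il6, a ligand whose receptor uses Stat3, averaged 519 ± 329 in media, 451 ± 278 with anti-IgM, 14888 ± 2362 with CpG, 4872 ± 1480 with PL2-3 and 5175 ± 840 with both (SD, n = 3). It rose by 4.85, 3.21 and 3.34 with CpG, PL2-3 and both. Ifng, which signals through Jak1 and Jak2, lay below the pseudocount in media at 23.5 ± 8.58 and rose by 5.56 with CpG, 3.60 with PL2-3 and 6.0 with both. Within the PL2-3 group Ifng ranged from 34.7 to 4076. Il2, a growth factor that signals through Jak1, Jak3 and the Stat5 proteins, rose by 1.51, 2.80 and 3.15 with CpG, PL2-3 and both. Il12a, a chain of interleukin 12, fell by -1.97, -1.36 and -2.25 with anti-IgM, PL2-3 and both.

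Inhibitors rose in some cases and fell in others. Of 20 tested, 0 rose and 2 fell with anti-IgM, 5 rose and 3 fell with CpG, 3 rose and 3 fell with PL2-3, and 5 rose and 5 fell with both, beside 19.5%, 30.1%, 25.9% and 41.9% of all genes called in either direction. Socs3, which blocks Jak1, Jak2 and Tyk2 at receptors of the interleukin 6 type, averaged 2297 ± 643 in media, 1492 ± 334 with anti-IgM, 10344 ± 1808 with CpG, 4387 ± 1934 with PL2-3 and 11798 ± 666 with both (SD, n = 3). It rose by 2.16 with CpG (limma adjusted p = 3.63e-06), 0.84 with PL2-3 (0.00713) and 2.36 with both (7.48e-07). Socs1, an inhibitor of JAK kinase activity, rose by 2.74, 1.13 and 2.51 in these comparisons. Without a term for the kit the PL2-3 calls of Socs3 and Socs1 ended (limma adjusted p = 0.0643 and 0.0917), and that of Socs1 also with only the groups compared (0.0652) and without media or PL2-3 replicate 1 or 2. Pias3, which restrains Stat3 on DNA, fell with all 4 stimuli, by -0.92, -1.13, -1.07 and -1.47 with anti-IgM, CpG, PL2-3 and both. Its other probe set changed by -0.30, -0.47, -0.08 and -0.98, and the anti-IgM call ended with Enzo arrays alone (limma adjusted p = 0.0509). After a shift of all arrays to 1 median 10 inhibitors rose with CpG and 9 with both agents. In that setting 25.7% and 38.5% of all genes were called in either direction, and 74.6% and 79.2% of those calls were higher.

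Of 15 genes that Stat3, Stat5 or Stat6 proteins are known to regulate, 1 rose and 5 fell with anti-IgM, 5 rose and 3 fell with CpG, 2 rose and 5 fell with PL2-3, and 3 rose and 7 fell with both. The shares of all genes were 10.1%, 13.1%, 12.4% and 17.2% up and 9.32%, 16.9%, 13.5% and 24.8% down. Ccnd2, a cyclin of early cell cycle entry, rose by 1.01, 2.55, 1.62 and 2.15 with anti-IgM, CpG, PL2-3 and both, and its other 6 probe sets ranged from 1.31 to 2.57 with CpG, from 0.29 to 1.65 with PL2-3 and from 0.59 to 2.67 with both. Batf, a partner of Irf4 in lymphocytes, rose by 2.79, 2.09 and 2.90 with CpG, PL2-3 and both. Bcl6, which Stat5 proteins repress in B cells, fell with anti-IgM by -1.36 ± 0.22 (limma adjusted p = 0.000479), and with PL2-3 and both agents by -0.82 each. The other Bcl6 probe set was at -0.59 with anti-IgM. Bcl3 fell further, by -2.01 with anti-IgM and -1.38 with PL2-3, and both calls held under every alternative run. Fcer2a, the low-affinity IgE receptor and a Stat6 target, fell with anti-IgM, PL2-3 and both, by -1.32, -1.50 and -2.36. The first of these calls rested on single arrays, with adjusted p from 0.0593 to 0.0895 without media replicate 1 or 2 or anti-IgM replicate 1 or 3, and it ended after a shift of all arrays to 1 median (0.0554). With the mean of the probe sets the anti-IgM and PL2-3 calls of Fcer2a ended (0.16 and 0.176). Pim2, a survival kinase, rose by 1.69 with CpG and fell by -1.21 with anti-IgM and by -0.79 with both. Bcl2l1, a survival factor, rose by 1.25 with both agents through its brightest probe set, and was -0.21 as the mean of its probe sets. Its rise with CpG, 1.44, was 0.72 (limma adjusted p = 0.109) as that mean. With the kit read from beta-actin, 6 of the 15 rose and 4 fell with both agents. Under that reading the counts with both agents were 3 up and 10 down for receptor chains, 5 up and 1 down for ligands, 6 up and 4 down for inhibitors, and 11 up and 0 down for interferon-response genes. It called 32.9% of all genes in either direction, and 43.2% of those calls were higher. Several of the targets are controlled by other pathways as well.

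Arrays labelled as B cells carried B cell markers. All 9 measured markers of that list lay at or above the array median on all 15 arrays. Their summed signal was 234891 to 320624 in media, 102923 to 135878 with anti-IgM, 101644 to 113480 with CpG, 62965 to 109119 with PL2-3 and 52829 to 76499 with both. Of these 9 markers 5, 7, 7 and 8 fell in the same order, beside 9.32%, 16.9%, 13.5% and 24.8% of all genes. Markers of other cells moved as well. The 10 myeloid markers, 8 of them at or above the median on all arrays, summed to 131350 to 260072 in media, 63114 to 103694 with anti-IgM, 58474 to 103981 with CpG, 56011 to 87528 with PL2-3 and 19334 to 159504 with both, and 4, 5, 2 and 8 of them fell. The 9 T cell markers, of which 1 was below the median on every array, summed to 6665 to 8121 in media and to 2437 to 5505 on the 12 stimulated arrays. Of the 8 tested, 3, 4, 2 and 5 fell. Of 7 natural killer cell markers 1, 1, 1 and 2 fell, and of 3 erythroid markers tested 0, 2, 3 and 2 fell. Of 6 dendritic cell markers tested, 1, 2, 1 and 2 rose and 1, 1, 1 and 3 fell, with Bst2, also an interferon-response gene, among those that rose. The shares of all genes that rose were 10.1%, 13.1%, 12.4% and 17.2%. With the kit read from beta-actin 8 B cell, 7 myeloid and 3 T cell markers fell with both agents, where 32.9% of all genes were called and 43.2% of those calls were higher. The part of these shifts in the falls of Jak1, Jak2, Tyk2 and Stat2 was not tested.

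The 3 members with the widest range of group means were Stat5a at 1.85, Stat2 at 1.50 and Jak1 at 1.18 on the log2 scale, followed by Tyk2 at 0.88, Jak2 at 0.64, Jak3 at 0.62, Stat5b at 0.48, Stat6 at 0.33 and Stat3 at 0.30. The genes whose signals correlated best with Stat5a over the 15 arrays were Pdcd1lg2 (Pearson r = 0.957), Usp31 (0.951) and Prkci (0.949). Pdcd1lg2 and Usp31 were called in all 4 comparisons with media, rising by 0.91 to 1.31 and by 0.93 to 1.27. For Stat2 they were Irf9, Map4k4 (0.854) and Gclm (0.853), and for Jak1 Zbtb5 (0.960), Peli1 (0.936) and Rictor (0.935). Peli1 fell with anti-IgM, PL2-3 and both agents by -0.74, -0.83 and -0.92 and changed by -0.08 with CpG. These coefficients describe arrays that share groups and labelling kits, so they are given without a p.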

How the data were processed

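RNA from AM-14 B cells was measured on 15 arrays, 3 in each of 5 groups taken from the titles. The deposited values are probe set intensities, linear MAS5 signals (version not given) per the submitters' processing notes. The authors appear to have scaled each array, since trimmed mean signals were 1492 to 1494. Of 45037 probe sets, 34945 carried 1 gene symbol, 932 several and 9160 none listed.

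From these signals, log2(signal + 75.2) was computed, the addend being the 20th percentile of all signals. Each gene was represented by its brightest probe set, and genes whose signal reached the median of its array on 3 or more arrays were tested, 13160 in all. Using R 4.3.3 and limma 3.58.1, lmFit with 5 groups and the labelling kit (9 residual degrees of freedom) and eBayes with an intensity trend gave two-sided p-values, adjusted by Benjamini-Hochberg within each comparison. The fit was checked on simulated data for CpG against media, with 200 of 13160 genes changed. It called 37% of 2-fold and 80% of 4-fold changes, and 8 unchanged genes. A gene that was not called is thus not shown to be unchanged. An exact two-sided permutation test of 3 arrays against 3 cannot go below 0.1, and the number of arrays limits precision.

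All 9 members and up to 4 called genes with the largest change per list and comparison with media were named, some followed across comparisons. The members and the 12 gene lists were chosen with earlier results of these data known.

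Same-numbered arrays deviated together without the anti-IgM+CpG group (r over 0.1 in 18 of 18 pairs) and not with it (0 of 12 pairs). The numbers follow the labelling kit, and no label ties them to an animal. Alternatives covered normalization, pseudocount, filter, kit term, replicate block, arrays used, probe set choice and leaving out each array. Figures were made in matplotlib 3.10.9 under Python 3.11.15. Probe sets naming several genes or none were left out of all tests.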

Additional observations from a re-analysis of the deposited data

How the results depend on the processing

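Counts are of the 9 STAT and JAK genes called. With arrays shifted to the same median, 1 gene was called for anti-IgM and 1 for CpG against media, and 1 each for CpG against anti-IgM, for PL2-3 against both agents and for both agents against anti-IgM. Of all genes 16.1%, 25.7%, 4.28%, 4.64% and 11.2% were called there, in this order. The median shift moved the median of all genes from -0.13 to 0.12, -0.21 to 0.15, -0.10 to 0.09 and -0.29 to 0.30 with anti-IgM, CpG, PL2-3 and both, and the share of calls that were higher from 52.1% to 77.1%, 43.7% to 74.6%, 47.8% to 64.7% and 40.9% to 79.2%. For PL2-3 against media 1 gene was called with the filter on all 15 arrays, which removed Stat2, without a kit term and with the mean of the probe sets, where 39.1%, 19.9% and 21.2% of all genes were called. For PL2-3 against CpG 0 were called under these and with Enzo arrays only, beside 5.16%, 1.91%, 2.44% and 2.11% of all genes. With the kit read from beta-actin, the calls were 1 for CpG against anti-IgM, 2 for PL2-3 against CpG, 1 for PL2-3 against both agents, 2 for both agents against anti-IgM, 2 for both agents against CpG and 1 for departure from additivity. The shares of all genes were 8.06%, 4.22%, 0.676%, 3.85%, 2.63% and 2.57%. With Enzo arrays only the calls were 1 for CpG against anti-IgM, 1 for PL2-3 against both agents, 2 for both agents against anti-IgM and 1 for departure from additivity, beside 4.1%, 10.3%, 14% and 2.99% of all genes. Departure from additivity also had 1 after quantile normalization, at the higher pseudocount and with the filter on all arrays, beside 5.85%, 2.9% and 5.62%. Without the anti-IgM+CpG arrays 1 was called for CpG against anti-IgM (8.73% of all genes) and 2 for PL2-3 against CpG (4.82%), and with only the groups compared 2 and 2 (9.02% and 4.83%). Both agents against CpG had 0 without a kit term (1.67% of all genes) and with only the groups compared (1.45%). The replicate block left every count of genes as it was (2, 3, 2 and 3 against media, beside 19.7%, 30.3%, 26.3% and 42.1% of all genes). Shares of all genes were not counted with 1 array left out. Leaving out 1 array gave 1 to 3 calls with anti-IgM, 1 to 4 with CpG, 2 to 3 with PL2-3, 3 to 4 with both, 0 to 1, 0 to 0, 0 to 2, 0 to 1, 0 to 1 and 0 to 2 for the comparisons between stimuli in the order of the report, and 0 to 3 for departure from additivity. Among values called in either fit, direction reversed for Stat3 with both agents (0.68 with the kit read from beta-actin) and for Bcl2l1 with both agents (-0.21 as the mean of its probe sets). Changes not called in either fit also turned sign, such as Stat2 with both agents (0.51 with the kit read from beta-actin) and Jak2 with both agents (0.37 after the median shift). The causes were not tested.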
